A study of Mus musculus with 16 samples.

Results

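miR-135a and miR-135b are related microRNAs. A microRNA guides a silencing complex to messenger RNAs that pair with its seed, the short stretch near its 5′ end, and the paired messages are translated less or degraded. A hairpin inhibitor is a synthetic RNA that binds the mature microRNA and keeps it from its targets. The genes described here are 10 that other work reported as targets of miR-135a or miR-135b: Apc, Jak2, Smad5, Tgfbr1, Foxo1, Rock1, Stk38l, Siah1a, Lats2 and Stat6. They were taken by name, and every probe that the platform annotation gives to them was used, which is 19 of 25697 probes and 10 of 16593 named genes.

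The cells were TUBO, a mammary carcinoma line from BALB-neuT mice, a strain whose mammary tumours are driven by a transgene for activated rat ErbB2 (neu). They were transfected by lipofection with 200 nM of either the miR-135b inhibitor (anti-miR-135b) or a hairpin serving as negative control, labelled scrambled and called control here. RNA from anti-miR-135b and control samples was hybridised to Illumina mouse bead arrays at 24 h (2 samples each), 48 h (3 each) and 72 h (3 each), 16 samples in all. TUBO is 1 cell line, and the labels do not say whether the samples of a group came from separate cultures, so p-values measure the spread between these samples, which may be technical. No label or table used here gives the level of miR-135b, so how far the inhibitor silenced it was not analysed here.

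Mature sequences of this family are shown for their seeds. They are printed 5′ to 3′ with the seed, bases 2 to 8, in capitals, from the RefSeq table of GRCm38.p6. The mature miR-135a-5p is encoded at chr9:106154140-106154162 on the + strand and again at chr10:92072141-92072163 on the - strand. The miR-135b-3p strand of the miR-135b hairpin, at chr1:132198142-132198163 on the + strand, carries another seed and is shown for contrast.
mmu-miR-135a-5p: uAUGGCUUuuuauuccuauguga
mmu-miR-135b-3p: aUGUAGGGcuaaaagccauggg
The sequence of miR-135b-5p is not printed here. The labels name miR-135b without a strand. Target sites in the messages of the 10 genes were not analysed here.

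The arrays had median probe intensities from 281.2 to 346.8 and upper quartiles from 375.8 to 529.4. Tested probes were found for 8 of 9 mammary epithelial markers, among them Krt8, Krt18 and Cdh1, against 1 of 6 fibroblast, 1 of 4 endothelial, 0 of 3 leukocyte and 1 of 3 adipocyte markers. The number of arrays limits the precision of every value below. Values are normalized log2 intensities of single probes, and a difference is the anti-miR-135b mean less the control mean on the log2 scale unless times are compared. Probes were tested if they averaged more than the median probe, which stood at 7.1 on the log2 scale, and the gene's brightest probe stands for it where 1 value per gene is counted. The arrays lay on 2 chips, with both arms at 48 h on the first and both arms at 72 h on the second. Control arrays of 48 h and of 72 h preceded the anti-miR-135b arrays in chip position, and these 2 factors cannot be told apart.

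None of the 9 tested genes passed the test of the inhibitor in any comparison, and Apc had no probe bright enough to be tested. Averaged over 48 and 72 h, the brightest probes of the 9 tested genes all lay lower under anti-miR-135b, by small amounts. Siah1a (-0.36), Tgfbr1 (-0.50) and Rock1 (-0.28) were among the larger differences, and Lats2 (-0.03) and Stat6 (-0.10) the smallest. The median of the 9 differences was -0.21, and that of all 12848 tested probes was -0.003. With limma, 0 of 13 member probes had an adjusted p under 0.05, as was the case for 0% of all tested probes, and the members' adjusted p-values ran from 0.62 to 0.98. At an unadjusted p under 0.05 there was 1 member probe, Siah1a, lower, against 4% of all probes lower and 3.84% higher. A difference below 0 was seen for 50.7% of all probes, against 9 of 9 members by brightest probe and 12 of 13 by probe. The genes were chosen with results of these arrays known, so the shared sign is a description and carries no p of its own.

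**Figure D1:**
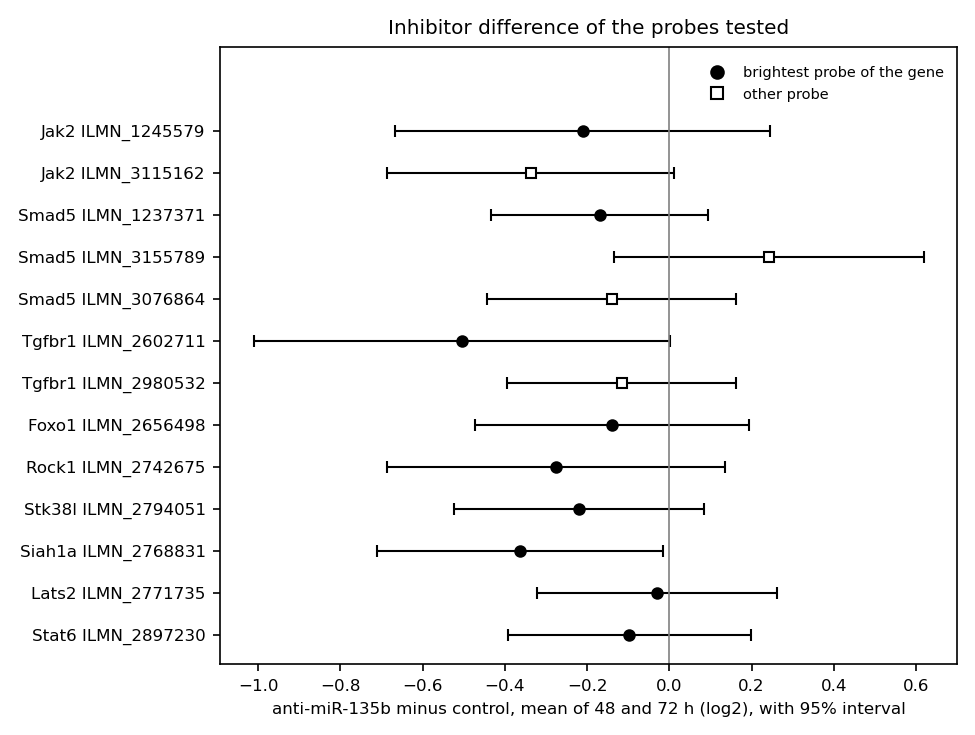
Difference between anti-miR-135b and control, averaged over 48 and 72 h (x axis, log2), for each of the 13 tested probes, with the 95% interval of the limma fit. Filled circles are the brightest probe of a gene and open squares its other probes; 12 of 13 points lie left of 0, and 12 of 13 intervals reach above it.

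The 95% intervals of the 9 brightest probes ended between -0.02 (Siah1a) and 0.26 (Lats2), on the scale of the measured signal. With all 13 probes the highest bound was 0.62, for the Smad5 probe ILMN_3155789. Background signal and the offset compress differences of dim probes, Lats2 among them, so these bounds do not limit the change of the message itself. Standard errors ran from 0.13 to 0.24. At their lower ends the intervals reached -1.01, for Tgfbr1. At both single times 6 of the 9 genes lay lower, which held for 27.6% of all tested probes. In 0 of 13 member probes did all anti-miR-135b samples lie below all control samples at both times, against 0.568% of all probes.

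The spread among samples was often carried by 1 library. Anti-miR-135b sample 13 at 48 h had the lowest upper quartile of all arrays, 375.8, and also the lowest values of both tested Tgfbr1 probes and of Rock1. Without it 8 of 9 genes lay lower in the mean of both times, with a median of -0.18. Control samples 4 and 7 had the highest values of Jak2 and Foxo1 at 48 and 72 h. The part of these libraries' quality in the results was not tested.

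Apc encodes the scaffold of the complex that marks beta-catenin, the effector of Wnt signals, for destruction. Neither of its 2 probes was bright enough to be tested. ILMN_2655204 measured 6.47, 6.89 and 6.24 in anti-miR-135b samples at 72 h, against 7.15, 7.00 and 7.35 in controls. ILMN_2650013 measured 7.11, 7.16 and 7.21 under anti-miR-135b, against 7.03, 6.78 and 6.85 in controls. The groups did not overlap in either probe, and the 2 probes lay opposite ways. Their differences in a fit without the filter were -0.63 (SE 0.25, limma adjusted p = 0.72) and 0.27 (SE 0.20, limma adjusted p = 0.86). Among all tested probes 7.06% were lower and 8% higher with no overlap at 72 h. That share is not given for probes below the filter. At 48 h both groups overlapped in both probes, with differences of 0.16 and 0.03. Over the 16 arrays the 2 probes correlated with r = -0.48, and both lay below the array's median intensity on 11 and 14 arrays, so a level of Apc above background was not shown.

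Tgfbr1 encodes the type I receptor for TGF-beta, a kinase that phosphorylates Smad proteins. Its brightest probe, ILMN_2602711, measured 8.78, 10.52 and 9.95 in anti-miR-135b samples at 48 h, against 9.63, 10.40 and 10.56 in controls. The values at 72 h were 9.84, 9.85 and 9.61 under anti-miR-135b, against 10.13, 10.61 and 10.24 in controls. The groups overlapped at 48 h, and at 72 h every anti-miR-135b sample lay below every control. The difference was -0.45 (SE 0.34) at 48 h and -0.56 (SE 0.34) at 72 h. Averaged over both times it was -0.50 (SE 0.24, limma adjusted p = 0.64), with an exact permutation p of 0.105. The difference at 48 h rests on sample 13: without it the value was 0.04, and the mean of both times was -0.26.

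The other tested Tgfbr1 probe, ILMN_2980532, differed less. It measured 7.96, 8.63 and 8.04 under anti-miR-135b at 48 h, against 8.22, 8.35 and 8.40 in controls, and 8.36, 8.35 and 8.35 at 72 h, against 8.60, 8.42 and 8.38 in controls. At 72 h the groups did not overlap, by a margin of 0.027, and the difference was -0.12 (SE 0.19). Over both times it was -0.12 (SE 0.13, limma adjusted p = 0.89). The 2 probes correlated with r = 0.62 over the 16 arrays. A further 2 Tgfbr1 probes were too dim to be tested and lay from -0.31 to 0.59 at the single times.

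Smad5 carries signals of bone morphogenetic proteins from their receptors to the nucleus. Its 3 tested probes did not share a direction. The brightest, ILMN_1237371, measured 9.40, 9.62 and 9.58 in anti-miR-135b samples at 48 h, against 9.31, 9.77 and 9.51 in controls. Samples at 72 h gave 9.28, 9.44 and 9.25 under anti-miR-135b, against 9.78, 9.67 and 9.56 in controls. The groups were mixed at 48 h and did not overlap at 72 h, where the difference was -0.35 (SE 0.18, limma adjusted p = 0.72). Over both times it was -0.17 (SE 0.13). ILMN_3155789 lay higher at 48 h by 0.48 (SE 0.25) and at 0.00 (SE 0.25) at 72 h, and the dim ILMN_3076864 lay at -0.22 (SE 0.20) and -0.06 (SE 0.20). The correlations between the 3 probes ran from -0.13 to 0.19 over the 16 arrays. Values of ILMN_1237371 spanned only 0.53 over these arrays and those of ILMN_3076864 only 0.65, against 1.28 for ILMN_3155789. Each pair holds a probe of narrow range, so low correlations cannot show whether the probes follow the same message. The near-zero difference of ILMN_1237371 at 48 h, 0.01, had a negative sign in 4 of the 6 fits that each left out 1 sample.

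**Figure D2:**
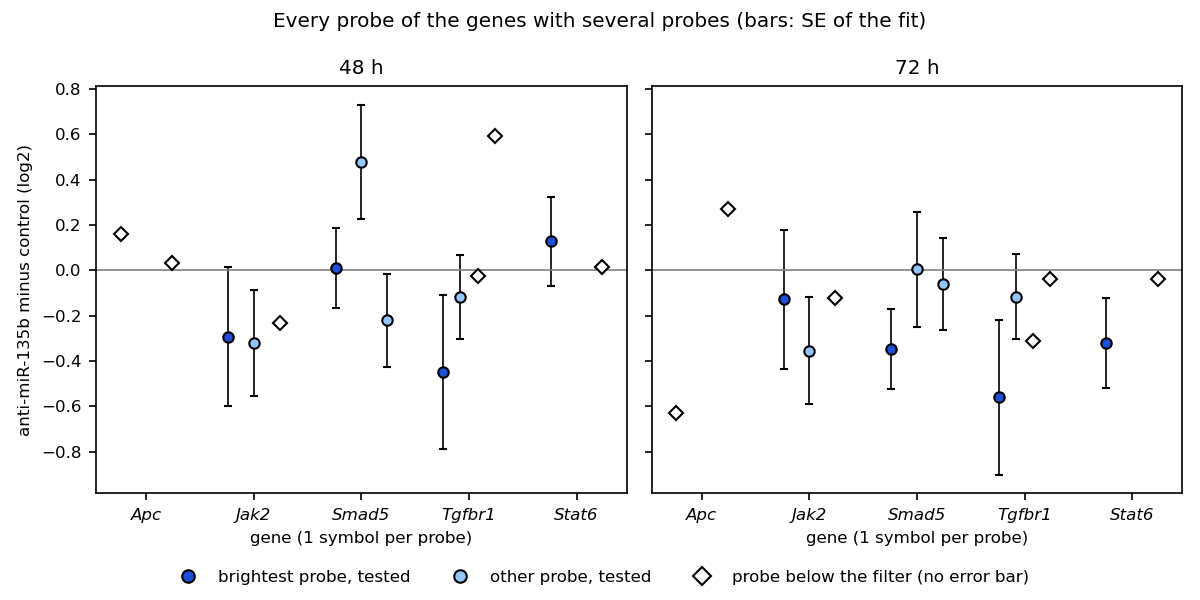
Difference between anti-miR-135b and control (y axis, log2) at 48 h and at 72 h for every probe of the 5 genes that have several. Dark circles are the brightest tested probe, pale circles other tested probes, open diamonds probes below the filter, and bars the standard error of the fit; the 2 Apc probes lie on opposite sides of 0 at 72 h.

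Jak2 encodes a tyrosine kinase that cytokine receptors use to phosphorylate STAT factors. Its brightest probe, ILMN_1245579, measured 8.97, 8.97 and 8.58 under anti-miR-135b at 48 h, against 9.90, 8.97 and 8.53 in controls. At 72 h it measured 9.35, 9.24 and 8.85 under anti-miR-135b, against 9.76, 9.04 and 9.02 in controls. The groups overlapped at both times, and each control group held 1 sample, 4 and 7, above the rest. The difference averaged over both times was -0.21 (SE 0.22, limma adjusted p = 0.88). Its sign at each time rests on that control: it was 0.09 at 48 h without sample 4 and 0.12 at 72 h without sample 7.

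The second tested Jak2 probe, ILMN_3115162, differed by -0.34 (SE 0.17, limma adjusted p = 0.65, exact permutation p = 0.11) over both times. It measured 8.21, 8.32 and 7.61 under anti-miR-135b at 48 h, against 8.64, 8.62 and 7.85 in controls, and 8.82, 8.65 and 8.42 at 72 h, against 9.13, 9.05 and 8.77 in controls. The groups overlapped at each time by 1 sample. The difference stayed between -0.47 and -0.23 with any 1 sample left out. The 2 probes correlated with r = 0.77, the closest among tested probes of 1 gene.

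Stat6 encodes the transcription factor that signals of interleukin-4 and interleukin-13 activate. Its tested probe, ILMN_2897230, measured 9.18, 8.62 and 8.77 under anti-miR-135b at 48 h, against 8.65, 8.87 and 8.67 in controls. The 72 h samples gave 9.28, 9.06 and 9.49 under anti-miR-135b, against 9.71, 9.64 and 9.43 in controls. The groups overlapped at both times, with differences of 0.13 (SE 0.20) and -0.32 (SE 0.20). Over both times the difference was -0.10 (SE 0.14, limma adjusted p = 0.92). At 48 h the sign turned without sample 13, to -0.03. The other Stat6 probe was below the array's median intensity on all 16 arrays.

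Foxo1 encodes a forkhead transcription factor that insulin and growth factor signals through AKT keep out of the nucleus. Its probe ILMN_2656498 measured 8.29, 8.52 and 8.42 in anti-miR-135b samples at 48 h, against 9.07, 8.33 and 8.41 in controls. At 72 h its values were 8.86, 8.79 and 8.40 under anti-miR-135b, against 9.15, 8.66 and 8.50 in controls. The groups overlapped at both times, and again control samples 4 and 7 were the highest. The difference over both times was -0.14 (SE 0.16, limma adjusted p = 0.89). It was 0.04 at 48 h without sample 4 and 0.11 at 72 h without sample 7.

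Rock1 encodes a kinase that raises actomyosin tension. Its probe ILMN_2742675 measured 7.31, 8.45 and 7.66 under anti-miR-135b at 48 h, against 8.28, 8.36 and 7.64 in controls. At 72 h it measured 8.16, 8.16 and 7.63 under anti-miR-135b, against 8.39, 8.10 and 8.25 in controls. The groups overlapped at both times. At 48 h anti-miR-135b sample 14 lay well above the other two of its group, and at 72 h sample 18 lay below the others. The difference was -0.28 (SE 0.20, limma adjusted p = 0.77) over both times, and -0.15 without sample 13.

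Stk38l and Lats2 encode related kinases of the NDR family, and Lats2 belongs to the core of the Hippo pathway, which restrains the coactivators YAP and TAZ. The Stk38l probe ILMN_2794051 measured 8.39, 8.41 and 8.44 under anti-miR-135b at 48 h, against 8.33, 8.63 and 8.63 in controls, and 8.17, 8.25 and 8.16 at 72 h, against 8.89, 8.00 and 8.65 in controls. The anti-miR-135b values lay close together at each time and within the range of the controls. The difference was -0.22 (SE 0.15, limma adjusted p = 0.74) over both times and -0.13 without control sample 7. The Lats2 probe ILMN_2771735 was dim, below the array's median intensity on 6 arrays, and its difference over both times was -0.03 (SE 0.14, limma adjusted p = 0.98). It lay at 0.13 at 48 h and -0.19 at 72 h (SE 0.20 each), and the mean of both times turned to 0.04 without sample 13.

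Siah1a encodes a RING ubiquitin ligase that marks proteins for the proteasome and takes part in a route of beta-catenin degradation. Mice also carry the closely similar Siah1b, and whether the probe tells the 2 apart was not tested. The Siah1a probe ILMN_2768831 measured 7.87, 7.67 and 7.59 in anti-miR-135b samples at 48 h, against 7.90, 8.05 and 8.22 in controls. Every anti-miR-135b sample lay below every control, by a margin of 0.03 at the closest, as did 5.5% of all probes at 48 h. The 72 h values were 7.99, 7.89 and 7.38 under anti-miR-135b, against 8.30, 7.91 and 8.20 in controls, where 1 sample of each group overlapped.

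Averaged over both times the Siah1a difference was -0.36 (SE 0.17, 95% interval from -0.71 to -0.02), an exact permutation p of 0.015 before any adjustment, where 0.005 is the smallest that the 400 arrangements can give. Over all probes tested the limma adjusted p was 0.62. The value ran from -0.42 to -0.27 with any 1 sample left out.

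**Figure D3:**
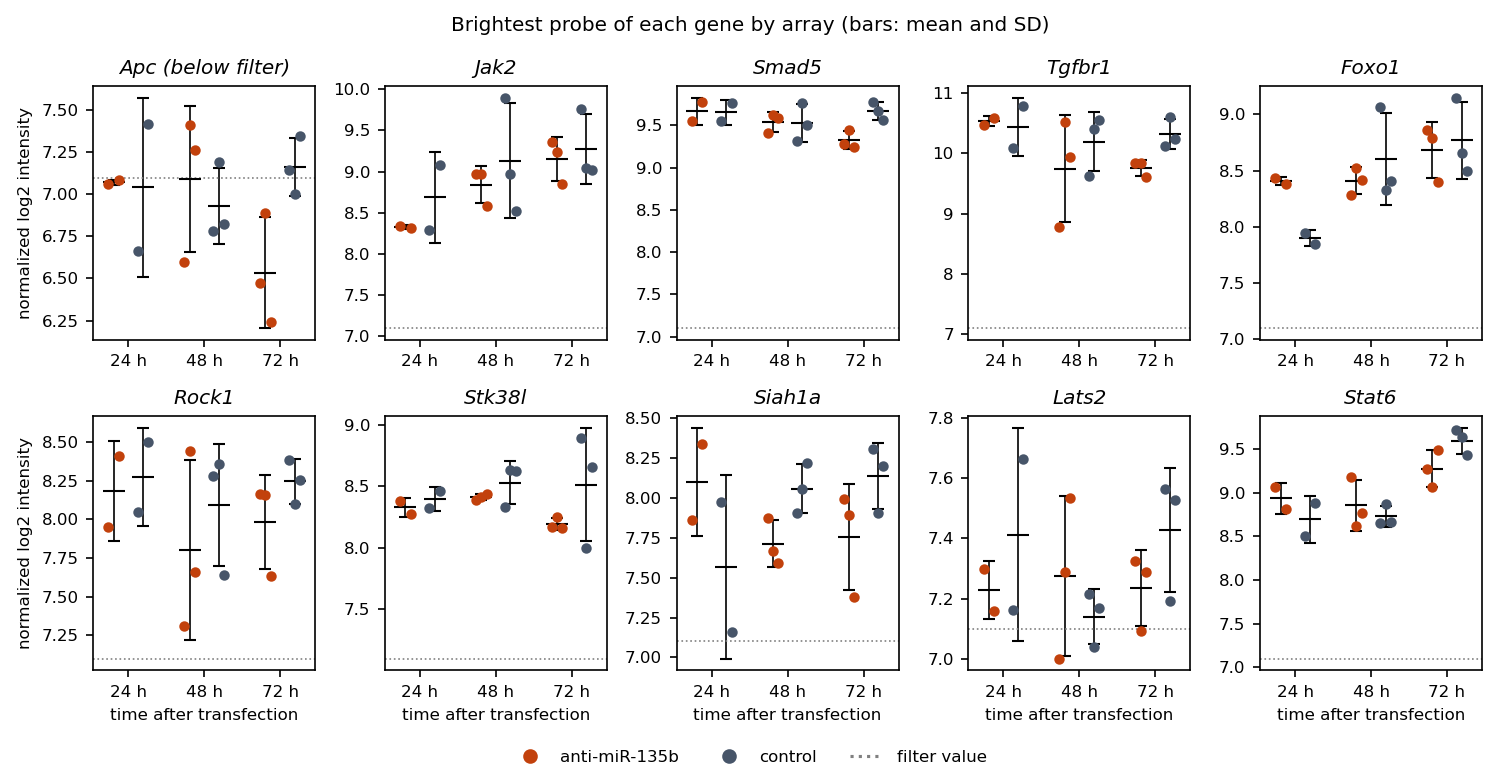
Normalized log2 intensity (y axis) of the brightest probe of each gene in every sample at 24, 48 and 72 h (x axis), anti-miR-135b left of control, with the mean and SD of each group and the filter value of 7.1 as a dotted line. At 72 h all 3 anti-miR-135b samples of Smad5, of Tgfbr1 and of Apc, which is below the filter, lie below all 3 controls. The groups also lie apart for Siah1a at 48 h and Foxo1 at 24 h, and overlap in the other comparisons within a time.

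At 48 h alone, 6 of the 9 genes lay lower by their brightest probe, against 51.1% of all probes, and the median was -0.19, or -0.042 without sample 13. With limma 0 of 13 member probes and 0% of all probes had an adjusted p under 0.05, and an unadjusted p under 0.05 was seen for 0 of 13 and for 6.24% of all. At 72 h alone, 9 of 9 lay lower, against 52.3% of all probes, with a median of -0.32, and by limma 0 of 13 member probes and 0% of all passed, with 0 of 13 and 7.13% of all at an unadjusted p under 0.05. At 72 h 3 of the 13 tested member probes were lower with no overlap between groups, the 2 of Tgfbr1 and ILMN_1237371 of Smad5, against 7.06% of all probes. With 3 samples in each group the smallest exact permutation p at a single time is 0.1. At neither time was a tested member probe higher with no overlap, against 4.68% of all probes at 48 h and 8% at 72 h. Whether the inhibitor difference itself changed between 48 and 72 h was tested as well. With limma 0 of 13 member probes and 0% of all probes passed, 0 members and 5.5% of all probes had an unadjusted p under 0.05, and the members' adjusted p-values ran from 0.85 to 1.00.

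At 24 h each arm had a chip of its own, and effects of chip and inhibitor cannot be told apart. With limma 0 of 13 member probes and 0% of all probes passed, and 0 of 13 against 4.06% of all had an unadjusted p under 0.05. By brightest probe 4 genes lay lower and 5 higher, and 50.9% of all probes lay lower. Foxo1 measured 8.43 and 8.38 under anti-miR-135b, against 7.95 and 7.85 in controls, a difference of 0.51 (SE 0.27, limma adjusted p = 1.00). It was the only tested member probe whose groups did not overlap at 24 h, which held, in the higher direction, for 16.4% of all probes. Siah1a measured 7.86 and 8.34 under anti-miR-135b, against 7.97 and 7.16 in controls, a difference of 0.53 (SE 0.29, limma adjusted p = 1.00) that was 0.13 without control sample 3. These 2 differences were positive, and both genes lay lower over 48 and 72 h.

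Between times 1 member passed the threshold. Under anti-miR-135b the Tgfbr1 probe ILMN_2980532 fell to 8.36, 8.35 and 8.35 at 72 h, against 9.33 and 9.19 at 24 h, a difference of -0.91 (SE 0.21, limma adjusted p = 0.014). It was the 1 of 13 member probes called in this comparison, where 7.98% of all probes were. In control cells the same probe measured 8.22, 8.35 and 8.40 at 48 h, against 9.22 and 9.17 at 24 h, a difference of -0.87 (SE 0.21) that did not pass (limma adjusted p = 0.058). There 0 of 13 member probes and 0.926% of all probes were called, and at an unadjusted p under 0.05 there were 2 member probes, this one and Foxo1, against 12.4% of all. In both arms every later sample lay below both samples at 24 h. For anti-miR-135b at 48 h and controls at 72 h this compares samples of different chips, so chip and time cannot be told apart there. Other member probes also lay apart between 24 and 72 h under anti-miR-135b, those of Jak2 in the other direction. The share of all probes that separate between times is not given here, so these separations say nothing particular about the members. With anti-miR-135b sample 11 or 12 at 24 h left out the first difference was -0.84 (limma adjusted p = 0.098) and -0.98 (limma adjusted p = 0.12), so the call rests on both samples; the lone sample left is assumed to vary like the other groups.

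Other probes followed this course less closely or not at all. The brightest Tgfbr1 probe differed by -0.77 (SE 0.38, limma adjusted p = 0.24) at 72 h under anti-miR-135b and by -0.25 (SE 0.38) at 48 h in controls. Jak2 lay the other way under anti-miR-135b, by 0.82 (SE 0.34, limma adjusted p = 0.15) for its brightest probe and 0.65 (SE 0.26, limma adjusted p = 0.14) for the other tested one. In control cells Foxo1 lay higher at 48 h than at 24 h by 0.71 (SE 0.25, limma adjusted p = 0.22), with 9.07, 8.33 and 8.41 against 7.95 and 7.85. Arrays of 24 h sat last on either chip, so time and position cannot be told apart in these differences.

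**Figure D4:**
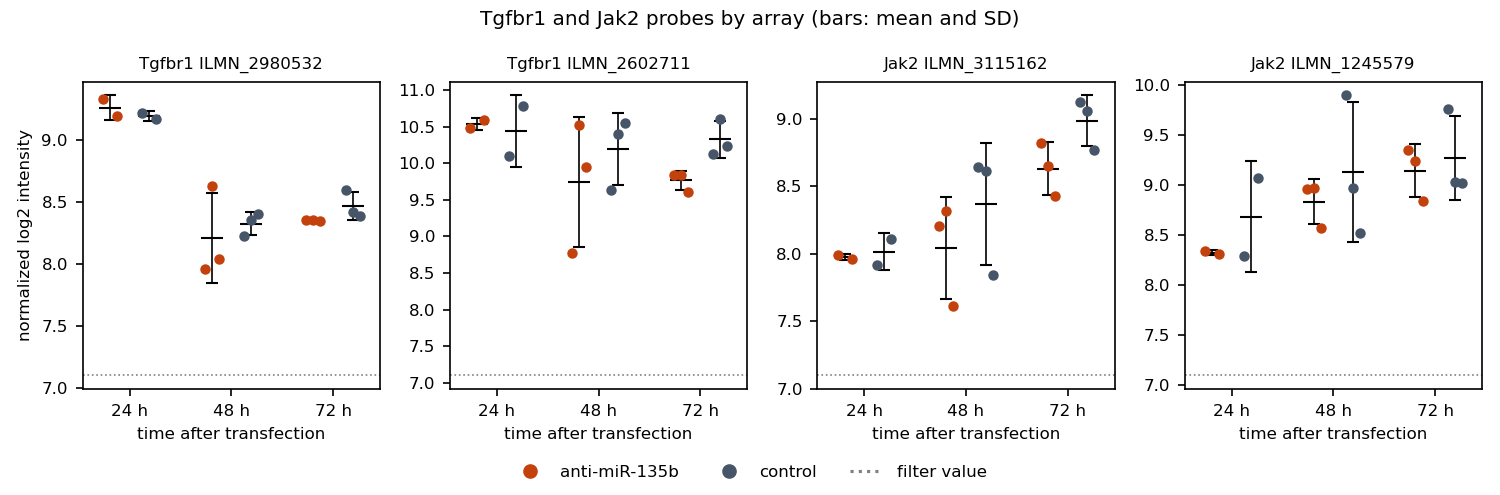
Normalized log2 intensity (y axis) of the tested Tgfbr1 and Jak2 probes in every sample by time after transfection (x axis), anti-miR-135b left of control, with group mean and SD. The Tgfbr1 probe ILMN_2980532 lies at 9.17 or above in all 4 samples at 24 h and at 8.63 or below in all later ones.

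The order of the group means takes in groups from both chips and is given as a description. Groups next to each other in that order lay apart for Tgfbr1 ILMN_2980532, Foxo1, Stk38l and Stat6 ILMN_2897230, and overlapped for the other member probes. How often such groups overlap among all probes was not counted, so this says nothing particular about the members. Tgfbr1 ILMN_2980532 was highest at 24 h in both arms, whose samples lay apart from the next group down. Stat6 was highest at 72 h, with a mean of 9.60 in controls and the anti-miR-135b group next, and lowest in controls at 24 h, with 8.70. Controls of 24 h and 48 h lay on the first chip and those of 72 h on the second, so chip and time cannot be told apart between them. For Jak2, both tested probes had the same order of means, from controls at 72 h at the top to anti-miR-135b at 24 h at the bottom. All neighbouring groups overlapped, while groups further apart in the order did not all overlap. In both probes every anti-miR-135b sample at 72 h lay above both at 24 h.

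Among themselves the 9 tested genes did not share 1 pattern over the 16 arrays. Of 36 pairs of brightest probes, 4 had a Pearson r above 0.5 and 0 below -0.5, with a median of 0.17. Jak2 and Foxo1 were the closest (r = 0.71), followed by Smad5 with Tgfbr1 (0.69), Tgfbr1 with Rock1 (0.61) and Smad5 with Rock1 (0.53). The lowest r was -0.32, between Siah1a and Lats2. These are descriptions across arrays that share chips, times and 1 normalization.

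Set against the other named probes that were tested, with predicted genes and clones left out, each gene had a nearest pattern in another gene, by the highest r over the 16 arrays. Stat6 was closest to Dedd2 (0.93), Tgfbr1 to Mapk6 (0.92), Jak2 to Plvap (0.88), Foxo1 to Serhl (0.87), Stk38l to Slc23a4 (0.86), Smad5 to Mob1a (0.86), Rock1 to Son (0.85), Siah1a to Nfu1 (0.80) and Lats2 to Prnp (0.78). Each is the highest of at least 11876 correlations, and closeness here is a description of these arrays.

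The genes around the members in their pathways were counted in the mean of 48 and 72 h, by brightest tested probe, and 0 passed in any list described here. Counts at an unadjusted p under 0.05 can be set against 4% of all probes lower and 3.84% higher. Of the beta-catenin destruction complex and Wnt readout, to which Apc belongs, 12 of 16 tested genes lay higher and 4 lower, with a median of 0.07 and 0 under 0.05. Csnk1e, a casein kinase of the pathway, differed by 0.36, the target gene Myc by 0.27 and Tcf7l2, a transcription factor that beta-catenin binds, by -0.19. In the list of TGF-beta and BMP receptors and Smads, 8 lay higher and 13 lower, with a median of -0.08 and -0.05 without Tgfbr1 and Smad5, and 2 were lower under 0.05. These were Skil, which encodes a repressor of Smad proteins (-0.61), and Id2, a target of BMP signals (-0.40), and Tgfbr2, the type II receptor for TGF-beta, differed by -0.32.

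Of the JAK and STAT list 5 lay higher and 15 lower, with a median of -0.10 and -0.09 without the members. Socs2, which dampens cytokine receptor signals, differed by -0.71, the phosphatase gene Ptpn11 by 0.50 and Stat3 by -0.41. Of FoxO factors and their known targets 7 lay higher and 9 lower (median -0.04), with the cell cycle inhibitor gene Cdkn1a at 0.41, catalase, Cat, at -0.30 and the transcription factor gene Klf2 at 0.30. Of the Hippo and NDR kinases 6 lay higher and 10 lower (median -0.04). Wwc1, an upstream activator, differed by -0.35, the kinase gene Stk4 by -0.42 and the YAP target Ccn2 by 0.51. The genes named are the non-members with the smallest limma p in each list. Those in these lists at an unadjusted limma p under 0.05 were Socs2 and Wwc1, lower, and Ptpn11 and Cdkn1a, higher.

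In the list of Siah ligases and known partners 5 lay higher and 10 lower, with a median of -0.09 and -0.08 without Siah1a. There 4 were lower under 0.05, Siah1a among them. The other 3 were Tbl1x (-0.58, SE 0.15, limma adjusted p = 0.32), whose product joins SIAH1 in a beta-catenin ligase complex in human cells, Peg3 (-0.50) and the related ligase gene Siah2 (-0.41).

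A further list held other published miR-135 targets. Mid1 and Mtch2 in this list are the targets of the very study that made these arrays, so they are not independent of it. Of the list's 13 tested genes 6 lay higher and 7 lower, with a median of 0.00 rounded from a value just below 0. By brightest probe Mid1, a ubiquitin ligase gene, was the only one under 0.05, at 0.76 (SE 0.18, limma adjusted p = 0.24). Mtch2, which encodes a protein of the outer mitochondrial membrane, lay at 0.22 (SE 0.18) by its brightest probe, and its other probes lay opposite ways. ILMN_2610204 was at 0.64 (SE 0.22, limma adjusted p = 0.49), with an unadjusted p under 0.05, and ILMN_2848583 at -0.26 (SE 0.18). Klf9 lay at -0.44 and Bcl2 at -0.33. The 9 tested members and these 13 genes were both reported as targets, and their medians were -0.21 and near 0, a difference between chosen lists that was not tested.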

How the data were processed

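The non-normalized table that the authors deposited gives the mean bead intensity of each probe on each array, made with GenomeStudio, per the submitters' processing notes (version not given in the sources used here). A second table that the authors deposited holds the same arrays on a log2 scale, with a normalization not given in the sources used here, and served as an alternative. All 16 of its columns matched their own array best by rank. No detection p-values or control probes were used.

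Intensities were background-corrected with normexp (offset 50) and quantile normalized in limma 3.58.1 (R 4.3.3). Of 25697 probes, the 12848 above the median were fitted with lmFit and eBayes, with a mean for each of 6 groups (10 residual and 7.76 prior degrees of freedom). P-values are two-sided and adjusted by Benjamini-Hochberg over all tested probes, threshold 0.05. The exact permutation test rearranged samples between arms within each time. Names came from the platform annotation, which gives 1 symbol for 23978 probes and none for 1719. The fit was checked on simulated data.

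The named genes are the 10 members with all probes, up to 3 genes per pathway list by smallest p in the mean of 48 and 72 h, and the 1 gene of highest r for each member. The members and lists were chosen with earlier results of these data known. The result of 1 pathway list is not reported here.

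Alternatives changed the background correction, offset (16), scaling, value table, filter, array weights, samples fitted and samples left out.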

Additional observations from a re-analysis of the deposited data

How the results depend on the processing

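Under every alternative run, 0 of the 13 tested member probes passed in any comparison of anti-miR-135b with control. Over all 91 member results there were 1494 values under alternatives, of which 1349 kept their direction and side of the threshold, 133 changed sign, 9 newly passed and 3 no longer passed. The count of genes lower in the mean of both times ran from 7 to 9 of 9.

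The number of all probes called moved more. Averaged over 48 and 72 h it was 0, and 8 with array weights, 2 with weights estimated gene by gene and 56 with the replicate block. The gene-by-gene weights were chosen after seeing the data, since the default estimate stopped short of convergence. At 48 h it was 0, and 1 with the block. At 72 h it was 0, and 26 with the block and 2 with each kind of weights, the authors' table or no background correction. In control cells, 48 h minus 24 h, it was 119, and 1265 with median scaling, 352 and 206 with the weights (default and gene by gene) and 17 with only the groups compared. Under anti-miR-135b, 72 h minus 24 h, it was 1025, and 377 with median scaling and 2178 and 2103 with the weights. Leaving out 1 sample gave 0 to 6 for the mean of both times, 0 to 4 at 48 h, 0 to 1 at 72 h, 0 to 0 at 24 h and for the difference between times, 19 to 119 in control cells and 25 to 677 under anti-miR-135b.

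The replicate block pairs samples by label order, which the labels do not state to be pairs. Same-order samples correlated in their deviations with r from 0.08 to 0.56, and 3 of the 12 samples correlated better with another number. With the block the members' smallest adjusted p was 0.15 in the mean of both times and Mid1 passed (0.76, limma adjusted p = 0.044).

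Median scaling moved the median of all probes by -0.27 at 48 h, 0.13 at 24 h, 0.36 in the difference between times and 0.30 in control cells, where 98.1% of calls were then higher, against 52.9%. Under it Smad5 ILMN_1237371 was -0.52 and Stat6 -0.30 at 48 h, Jak2 ILMN_1245579 0.043 and Foxo1 0.066 at 72 h, and Tgfbr1 ILMN_2602711 0.45 in control cells over time. With array weights Foxo1 was 0.032 and Lats2 0.063 in the mean of both times, Smad5 ILMN_1237371 -0.15, Foxo1 0.062 and Stat6 -0.059 at 48 h, and Jak2 ILMN_1245579 0.0078, Foxo1 0.0024 and Smad5 ILMN_3155789 -0.017 at 72 h. Gene by gene, Lats2 was 0.048 in the mean, Smad5 ILMN_1237371 -0.10, Foxo1 0.014 and Stat6 -0.029 at 48 h, and Smad5 ILMN_3155789 -0.046 at 72 h. Smad5 ILMN_1237371 was -0.027 at 48 h in the authors' table, and Smad5 ILMN_3155789 -0.0017 at 72 h with offset 16. The cause was not tested.

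With 1 sample left out, signs turned within these ranges: Lats2 -0.094 to 0.038 in the mean; at 48 h Jak2 ILMN_1245579 -0.60 to 0.089, Smad5 ILMN_1237371 -0.10 to 0.13, Tgfbr1 ILMN_2602711 -0.83 to 0.038 and ILMN_2980532 -0.33 to 0.0075, Foxo1 -0.33 to 0.039 and Stat6 -0.035 to 0.24; at 72 h Jak2 ILMN_1245579 -0.25 to 0.12, Smad5 ILMN_3155789 -0.18 to 0.29 and ILMN_3076864 -0.22 to 0.088 and Foxo1 -0.22 to 0.11; and Tgfbr1 ILMN_2602711 -0.59 to 0.098 in control cells over time.

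Of the time differences, Tgfbr1 ILMN_2980532 in controls passed with no background correction or the authors' table (-0.63 in both) and with the weights (-0.85 in both). Under anti-miR-135b it was -1.02 with median scaling (limma adjusted p = 0.057). Jak2 ILMN_1245579 passed with the weights (0.83, and 0.81 gene by gene) and with only the groups compared (0.82), as did Tgfbr1 ILMN_2602711 (-0.77) with the last, and Foxo1 in controls with median scaling (1.12). Without detection p-values, a level above background was not shown for the dim probes, Apc and Lats2 among them.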
